A study of Mus musculus with 36 samples.

Results

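The genes of dendritic cell maturation and costimulation followed here in 36 mouse mammary tumors are *Itgax*, *Flt3*, *Cd40*, *Cd80*, *Cd83*, *Cd86*, *Ccr7*, *Ccl17*, *Ccl22* and *Fscn1*. They were listed by name, with earlier results of these data known, and make up 10 of the 12394 genes measured, and 18 of 22690 probe sets. The tumors grew from 67NR or 66cl4 cells, mouse breast cancer lines, after injection into the mammary fat pad. Hosts were NSG (written NOD/SCID/Ifrg2r-/- in the methods) or BALB/c female mice 6 to 8 weeks old. For each line and host there were 6 tumors of cells carrying 1 of 2 *Bptf* shRNAs (BPTF KD) and 3 Control tumors. Tumors were collected at day 21 for 67NR and at day 28 for 66cl4, and more 67NR than 66cl4 cells were injected, so line, cell number and day cannot be told apart. NSG mice lack T, B and NK cells, and their strain background differs from that of BALB/c. Host strain, immune deficiency and anything else that differed between the experiments in these hosts cannot be told apart either. The shRNAs were brought in by retrovirus into the cancer cells, not into host cells, and the labels do not say which of the 2 shRNAs a tumor carried, so tumors of both may be mixed within a group of 6. RNA came from whole tumor tissue, in which fewer cells of a type and less RNA per cell cannot be told apart.

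Dendritic cells take up antigen in tissue, mature on danger signals and carry the antigen to lymph nodes, where they activate T cells. Maturation brings the costimulatory ligands CD80 and CD86, which bind CD28 and CTLA4 on T cells, the receptor CD40, which is engaged by CD40 ligand, and CD83, which keeps MHC class II and CD86 on the surface. It also brings CCR7, the receptor for the lymph node chemokines CCL19 and CCL21, and fascin (*Fscn1*), which bundles actin in the dendrites. CCL17 and CCL22 are chemokines that attract CCR4-bearing T cells. *Itgax* encodes CD11c, and *Flt3* the receptor for the growth factor that sustains dendritic cells. Most of these genes are also used by other cells: *Itgax* and *Cd86* by macrophages, *Cd40* and *Cd80* by B cells, *Ccr7* by naive T cells, and *Fscn1* by stromal and many carcinoma cells.

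Each value below is the deposited log2 level of the brightest probe set of the gene. Array medians lay between 7.03 and 7.21, and the number of arrays limits the precision. For *Bptf*, the targeted gene, the range in 67NR of NSG mice was 9.15 to 10.01 over BPTF KD tumors and 9.37 to 10.17 over Controls (exact permutation p = 0.321). In 67NR of BALB/c mice BPTF KD tumors spanned 8.34 to 10.68 and Controls 9.73 to 10.31 (exact permutation p = 0.929). In 66cl4 of NSG mice the ranges were 8.56 to 9.15 for BPTF KD tumors, against 9.14 to 9.18 for Controls (exact permutation p = 0.0595). In 66cl4 of BALB/c mice they were 8.68 to 9.12 for BPTF KD tumors, against 9.50 to 10.61 for Controls (exact permutation p = 0.0119, the smallest that 84 splits can give). Only in 66cl4 in BALB/c did the brightest *Bptf* probe set separate all 6 BPTF KD tumors from the Controls, so BPTF KD below means the tumor's label. The other *Bptf* sets differed there by -1.84, -1.29 and -0.14, the last without separating the groups. In 67NR the same sets, in this order, differed by -0.76, -0.78 and 0.06 in NSG mice. In BALB/c mice they differed by -0.265, -0.62 and 0.03, and no set separated the 67NR groups in either host. That last set was higher in all 6 BPTF KD tumors of 66cl4 in NSG mice (0.30, exact permutation p = 0.0119). These are RNA levels, and BPTF protein was not measured here. The tumor labelled 67NR BPTF KD replicate 3 in BALB/c stood apart: its mean over 8 skeletal muscle genes was 11.75, against 5.69 to 7.60 in the other 5 tumors of its group, and its 8 genes of all leukocytes averaged 12.02, the highest of the group. In 66cl4 the same muscle mean was 5.24 to 7.28 in BPTF KD tumors of NSG mice and 6.75 to 11.39 in those of BALB/c mice, and 5.23 to 6.92 and 8.88 to 11.12 in Controls. Of the markers of conventional dendritic cells, 13 were measured, and their mean lay between 6.57 and 8.93 over all 36 tumors.

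The genes differed widely in their probe signals, which are not compared between genes here, and by the mean over all tumors all 10 lay outside the dimmest 25% of genes. *Cd80* was the nearest to it, at percentile 27.0, while a probe set averaging 5.50 counted as dim. *Cd80* averaged 4.71 in 67NR BPTF KD tumors of NSG mice. In 66cl4 it averaged 5.01 in Controls and 5.12 in BPTF KD tumors of NSG mice, and 5.43 in BPTF KD tumors of BALB/c mice. Its differences with these groups thus involve low signals. *Itgax* (chr7:128129526-128150657, GRCm38.p6 as for all positions) had its highest mean in 67NR BPTF KD tumors of BALB/c mice, 8.41 ± 1.23 (SD, n = 6), and its lowest in 66cl4 Controls of NSG mice, 5.63 ± 0.18 (SD, n = 3). All 4 groups in NSG mice lay below all 4 groups in BALB/c mice in the order of its means, although ranges of neighbouring groups overlapped. *Flt3* (chr5:147330741-147400489) spanned the least, with group means between 6.28 and 6.85, and the ranges of all neighbours in its order overlapped.

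*Cd40* (chr2:165055614-165071654) averaged 8.55 ± 1.08 in 67NR BPTF KD and 8.35 ± 0.51 in 66cl4 BPTF KD tumors of BALB/c mice (SD, n = 6 each), which overlapped. Its lowest 3 means, 6.70 to 6.96, were the other 67NR groups, and the lowest 66cl4 group did not overlap with the highest of these. *Cd86* (chr16:36568956-36666158) and *Cd83* (chr13:43785112-43803133) had their highest means in 66cl4 BPTF KD tumors of BALB/c mice, 9.35 ± 0.33 and 11.03 ± 0.54, and their lowest in 67NR Controls of NSG mice, 7.54 ± 0.07 and 8.67 ± 0.18. *Cd80* (chr16:38457430-38495958) had another order. Its means were highest in 67NR of BALB/c mice, 7.03 ± 0.82 in BPTF KD tumors (SD, n = 6) and 7.15 ± 0.26 in Controls (SD, n = 3), and lowest in 67NR BPTF KD tumors of NSG mice, 4.71 ± 0.24 (SD, n = 6).

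*Ccr7* (chr11:99144199-99155077) was at 5.44 ± 0.29 in BPTF KD tumors and 5.46 ± 0.52 in Controls of 67NR in NSG mice, and these 2 groups did not overlap with 67NR Controls of BALB/c mice, the next in its order at 6.38 ± 0.18. *Ccl22* (chr8:94745684-94751388) ran from 6.12 in 67NR Controls of NSG mice to 7.77 in 67NR BPTF KD tumors of BALB/c mice. These 67NR BPTF KD tumors, at 7.20 to 8.79, did not overlap with the next in the order, 67NR Controls of BALB/c mice, at 6.69 to 7.15. *Ccl17* (chr8:94809380-94812038) had its highest mean in the same tumors, 7.77 ± 1.13, and its lowest in 66cl4 Controls of NSG mice, 5.87 ± 0.20, with overlap at each step. *Fscn1* (chr5:142960355-142973189) was the exception in direction: its highest mean, 12.50 ± 0.31, was in 67NR BPTF KD tumors of NSG mice and its lowest, 11.33 ± 0.32, in 66cl4 BPTF KD tumors of NSG mice.

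**Figure D1:**
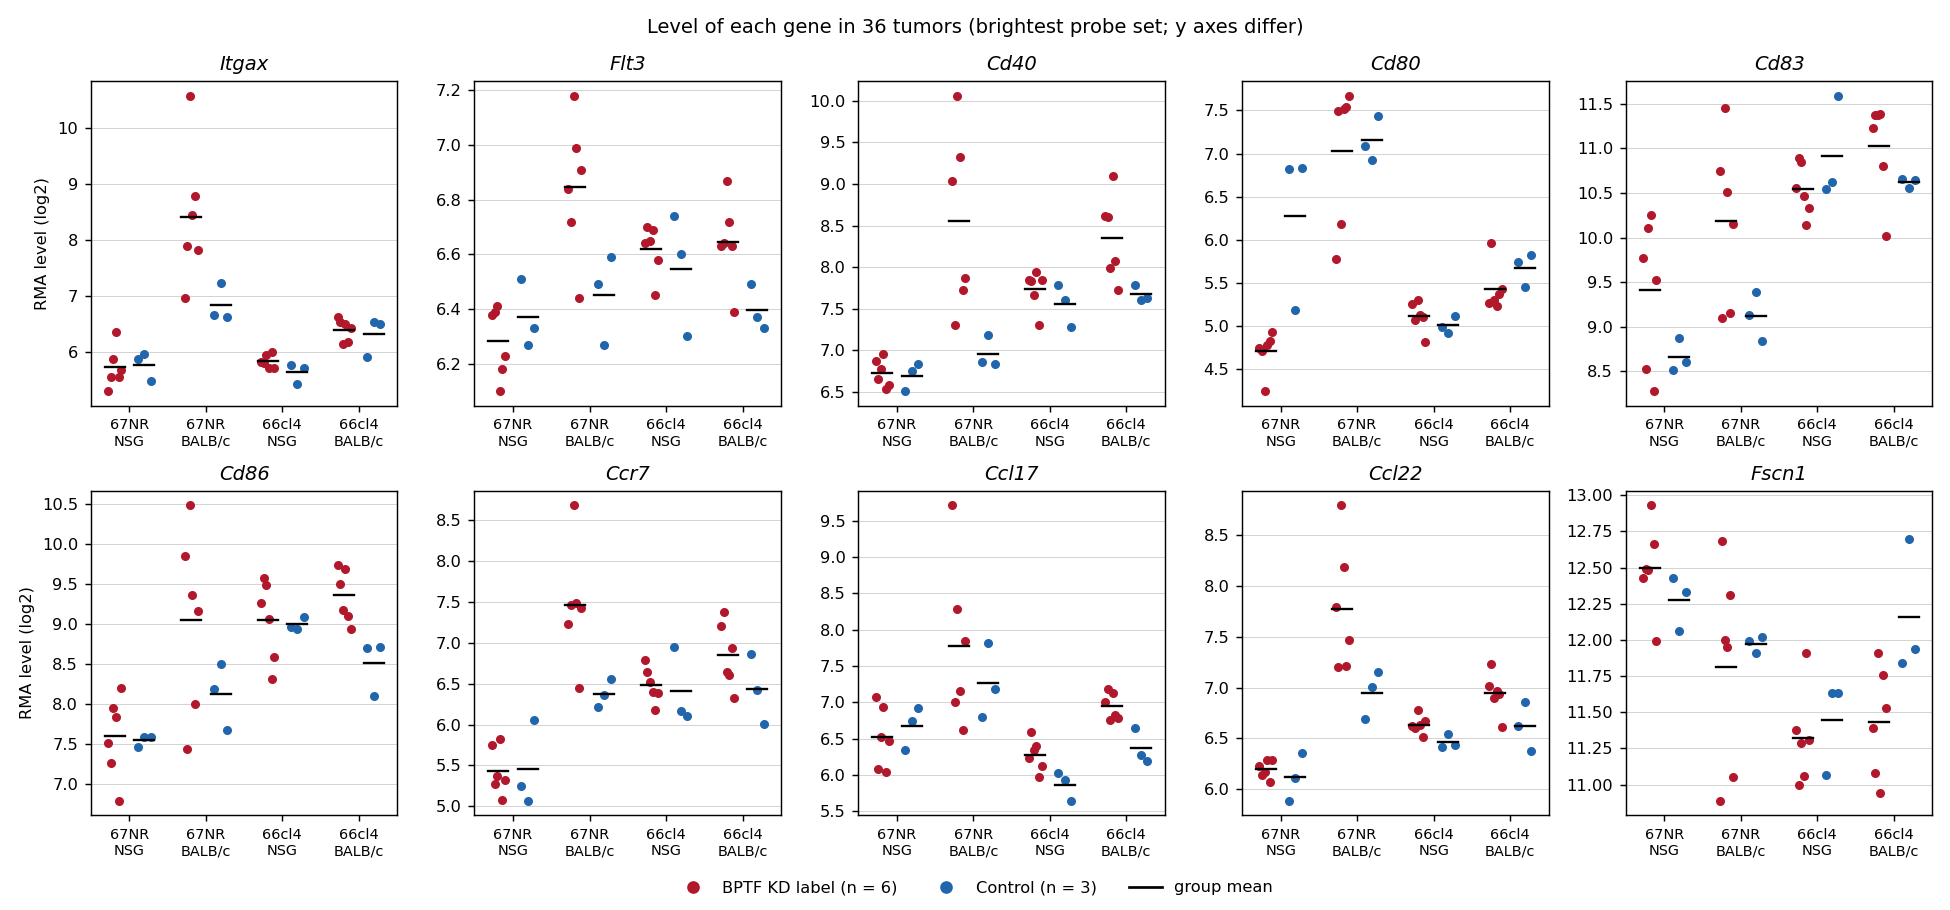
Log2 level (y axis, a scale of its own per gene) of the 10 genes in each tumor (points), by cell line and host (x axis), with BPTF KD in red (n = 6) and Control in blue (n = 3), and group means as bars. *Itgax* reached 10.57 in 1 BPTF KD tumor of 67NR in BALB/c mice, and *Cd80* stayed between 4.25 and 4.93 in 67NR BPTF KD tumors of NSG mice.

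To ask whether BPTF KD tumors differed from Controls, the groups were compared within each line and host by limma across all genes. In 67NR of BALB/c mice none of the 10 genes passed an adjusted p of 0.05 (smallest 0.609), as for all genes (0%). At an unadjusted p under 0.05, 5 of the 10 were higher (*Itgax*, *Flt3*, *Cd40*, *Ccr7*, *Ccl22*) and 0 lower, beside 4.37% of all genes higher and 3.38% lower. The median difference over the 10 genes was 0.88 on the log2 scale, beside a median of 0 to 2 decimals for all genes, and 8 of 10 differences were positive (49.3% of all genes).

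*Cd40* was at 7.30, 8.45 and 10.06 (lowest, median, highest) in these BPTF KD tumors, against 6.83, 6.86 and 7.18 in Controls. The groups did not overlap, and the difference was 1.59 ± 0.57 (SE), 3.02-fold, with a 95% interval of 0.32 to 2.87 (adjusted p = 0.609). *Ccl22*, at 7.20, 7.63 and 8.79, against 6.69, 7.01 and 7.15 in Controls, also lay above every Control in all 6 tumors (0.82 ± 0.34, adjusted p = 0.636). A lack of overlap with the BPTF KD tumors higher was found for 3.13% of all genes.

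*Itgax*, the CD11c gene, was at 6.96, 8.17 and 10.57 in BPTF KD tumors and at 6.62, 6.65 and 7.23 in Controls (1.58 ± 0.65, adjusted p = 0.635), with 5 of 6 tumors above every Control. *Ccr7*, the lymph node homing receptor, was at 6.45, 7.45 and 8.68, against 6.21, 6.36 and 6.56 (1.08 ± 0.38, adjusted p = 0.609). Here too the lowest BPTF KD tumor lay inside the Control range. The remaining differences were 1.07 for *Cd83*, 0.93 for *Cd86*, 0.50 for *Ccl17*, 0.40 for *Flt3*, -0.12 for *Cd80* and -0.16 for *Fscn1*.

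Replicate 3, the tumor with the high muscle and leukocyte genes, was the highest of its group for 7 of the 10 genes (*Itgax*, *Flt3*, *Cd40*, *Cd83*, *Cd86*, *Ccr7*, *Ccl22*). Without it the differences were 1.29 for *Cd40*, 1.15 for *Itgax*, 0.84 for *Ccr7* and 0.62 for *Ccl22*, again with 0 of 10 called. *Ccl17* was highest in replicate 1, at 9.71, a tumor in which *Itgax* (6.96), *Cd80* (5.78) and *Fscn1* (10.89) were the lowest of the group. The means of 8 T cell markers were 6.61 to 9.58 in these BPTF KD tumors, against 5.93 to 6.92 in Controls, and those of 8 leukocyte genes 10.57 to 12.02, against 10.21 to 10.31. The 12 macrophage markers averaged 10.66 to 11.92, against 11.02 to 11.15, and the 13 dendritic cell markers 7.70 to 8.93, against 7.45 to 7.48. Every BPTF KD tumor was also above every Control in the mean of 7 MHC class II genes (11.30 to 13.10, against 9.91 to 10.46), of 7 NK cell markers (7.66 to 9.28, against 7.35 to 7.41), of 6 B cell markers (5.67 to 6.97, against 5.43 to 5.55) and of 7 lymph node stroma and follicle markers (5.75 to 6.89, against 5.30 to 5.67). None of the genes of these lists passed the test. The part of these other cells in the differences was not tested.

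In 66cl4 of BALB/c mice, again 0 of 10 genes were called, where 0.186% of all genes were. The 2 nearest the threshold, each with an adjusted p of 0.0702, were *Cd86*, the CD28 ligand, and *Ccl17*. *Cd86* was at 8.94, 9.34 and 9.73 in BPTF KD tumors, against 8.10, 8.70 and 8.71 in Controls (0.85 ± 0.20, 1.80-fold). *Ccl17* was at 6.76, 6.92 and 7.18, against 6.20, 6.27 and 6.65 (0.57 ± 0.14, 1.49-fold). For both, all 6 BPTF KD tumors were above every Control, a pattern that 3.78% of all genes had.

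*Cd40* was at 7.73, 8.34 and 9.10 in these BPTF KD tumors, against 7.60, 7.63 and 7.79 (0.68 ± 0.26, adjusted p = 0.135), with 5 of 6 above every Control. *Fscn1* was at 10.94, 11.46 and 11.91, against 11.84, 11.94 and 12.70 (-0.73 ± 0.24, adjusted p = 0.105), so that 5 of 6 tumors lay below every Control. At an unadjusted p under 0.05, 5 of the 10 genes were higher (*Flt3*, *Cd40*, *Cd86*, *Ccl17*, *Ccl22*) and 1 lower (*Fscn1*), beside 12.4% and 13.4% of all genes. The other 4 differences were 0.42 for *Ccr7*, 0.41 for *Cd83*, 0.09 for *Itgax* and -0.25 for *Cd80*, and the median over the 10 genes was 0.37, beside 0.03 over all genes. Without Control replicate 1, 3 genes were called (*Cd86*, *Ccl17* and *Fscn1*), beside 17.8% of all genes, without BPTF KD replicate 6 *Cd86* was, beside 2.68%, and without each of the other 7 tumors 0 were.

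Some lists of markers separated the same groups in 66cl4 of BALB/c mice. Every BPTF KD tumor was above every Control in the mean of 8 T cell markers (6.26 to 7.15, against 5.85 to 6.16), of 6 B cell markers (5.63 to 6.06, against 5.20 to 5.58), of 7 lymph node stroma and follicle markers (6.09 to 6.44, against 5.53 to 5.99) and of 13 dendritic cell markers (7.75 to 8.14, against 7.60 to 7.73). The means overlapped for 8 leukocyte genes (11.07 to 11.23, against 11.03 to 11.23), 12 macrophage markers (11.57 to 11.87, against 11.69 to 12.02) and 8 muscle genes (6.75 to 11.39, against 8.88 to 11.12). Of all these genes 1, the B cell marker *Ms4a1*, passed the test. The means also overlapped for 7 NK cell markers (6.93 to 7.80, against 6.48 to 7.01) and 7 MHC class II genes (11.10 to 11.89, against 9.99 to 11.77). They did not for 24 other genes of mature dendritic cells (7.377 to 7.775, against 7.235 to 7.336). The part of these cells in the differences was not tested.

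In 67NR of NSG mice, 1 gene passed: *Cd80* fell in BPTF KD tumors to 4.25, 4.77 and 4.93 (lowest, median, highest), against 5.19, 6.82 and 6.83 in Controls (-1.57 ± 0.32, 2.97-fold lower, adjusted p = 0.0452), where 0.549% of all genes fell. All 6 tumors lay below every Control (3.1% of all genes), and the spread of the Controls came from replicate 2, at 5.19. The call was lost in 7 of 9 fits with 1 tumor left out. The difference was -2.12 without Control replicate 2 and -1.30 without Control replicate 3. The call was also lost with the methods' t-test, with the mean over the probe sets of a gene and, for the brightest set, with every probe set tested.

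*Cd80* has 3 other probe sets. The second brightest was at 5.11 to 5.34 in the 6 BPTF KD tumors and 5.56 to 6.05 in the Controls (-0.62 ± 0.12, adjusted p = 0.0385 over all probe sets), without overlap. The other 2, whose means over all tumors of 4.07 and 3.86 lay in the dimmest 25%, differed by 0.02 and -0.01. The remaining 9 genes in 67NR of NSG mice differed by -0.15 (*Ccl17*) to 0.75 (*Cd83*), and the median over all 10 was 0.005. *Cd83* was at 8.28, 9.65 and 10.25 in BPTF KD tumors, against 8.52, 8.61 and 8.87 (adjusted p = 0.457), so the groups overlapped.

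In 66cl4 of NSG mice 0 of 10 genes were called (all genes, 0%). The largest difference was that of *Ccl17*, at 5.97, 6.30 and 6.59 in BPTF KD tumors and 5.65, 5.93 and 6.03 in Controls (0.41 ± 0.14, adjusted p = 0.576), with 5 of 6 tumors above every Control. It was also the 1 gene at an unadjusted p under 0.05, beside 7.68% of all genes. The other differences ran from -0.38 (*Cd83*) to 0.20 (*Itgax*), and the median was 0.09. Over the 4 comparisons, the difference for *Cd40* was 0.03 in NSG and 1.59 in BALB/c for 67NR, and 0.18 in NSG and 0.68 in BALB/c for 66cl4.

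**Figure D2:**
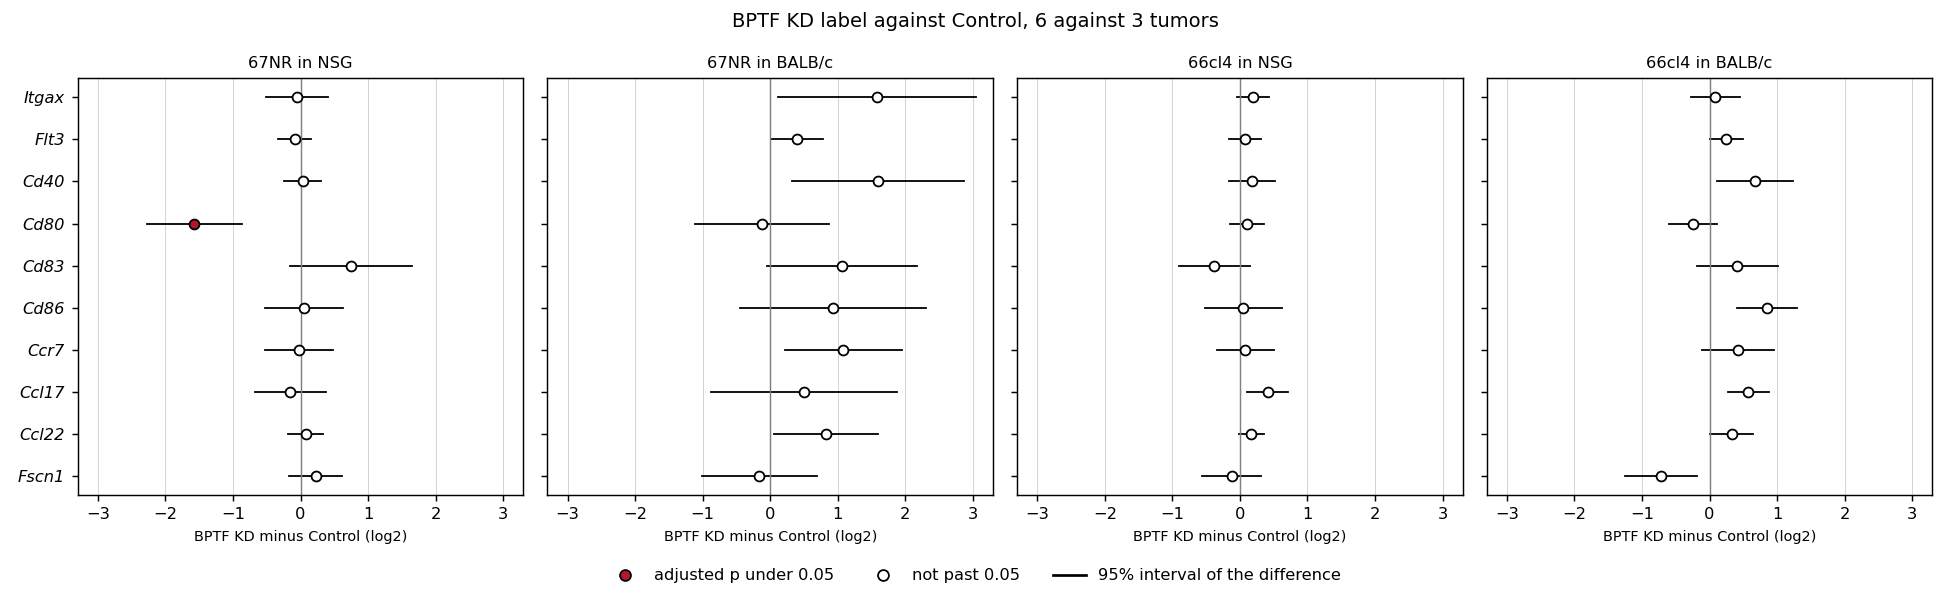
Difference between BPTF KD and Control tumors (x axis, log2) for the 10 genes (y axis) in the 4 pairs of line and host, with 95% intervals, filled where the adjusted p was under 0.05. *Cd80* in 67NR of NSG mice, at -1.57, is the filled point, and the intervals are widest in 67NR of BALB/c mice, as for *Itgax* (0.11 to 3.04).

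Whether the BPTF KD difference itself depended on host or line was tested by interaction. For the host, 0 of 10 genes passed in 67NR and 0 of 10 in 66cl4 (all genes, 0% each). In 67NR, 5 were at an unadjusted p under 0.05 and lower, *Cd40*, *Flt3*, *Cd80*, *Ccr7* and *Itgax*, beside 3.4% of all genes lower. The BPTF KD difference of *Cd40* was 1.56 ± 0.61 lower in NSG than in BALB/c mice (adjusted p = 0.607), and that of *Itgax* 1.63 ± 0.72 lower (adjusted p = 0.678). In 66cl4, *Cd86* alone was at an unadjusted p under 0.05, with a difference 0.80 ± 0.35 lower in NSG (adjusted p = 0.416), beside 5.95% of all genes lower. For the line, 0 of 10 passed in BALB/c mice (all genes, 0%; 0 of 10 at an unadjusted p under 0.05) and 1 of 10 in NSG mice, where *Cd80* had a BPTF KD difference 1.68 ± 0.36 lower in 67NR than in 66cl4 (adjusted p = 0.0347, all genes called lower 0.379%). It was -1.57 in 67NR and 0.11 in 66cl4. That call was lost in 12 of 18 fits with 1 tumor left out and in the fit of all 36 tumors, with differences between -2.22, without 67NR Control replicate 2, and -1.40, without 67NR Control replicate 3.

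The hosts were compared next, within line and label. These comparisons use the same tumors as those above and are not independent of them. In 67NR BPTF KD tumors, 8 of 10 genes fell in NSG mice (all genes called lower, 11.3%): *Itgax*, *Flt3*, *Cd40*, *Cd80*, *Cd86*, *Ccr7*, *Ccl17* and *Ccl22*. The median over the 10 genes was -1.52, beside -0.04 over all genes. *Cd83*, with a difference of -0.77, and *Fscn1*, with 0.68, did not pass (adjusted p = 0.184 and 0.0617).

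*Itgax* was at 5.30, 5.62 and 6.35 in NSG mice, against 6.96, 8.17 and 10.57 in BALB/c mice, a 6.45-fold lower level (-2.69 ± 0.42, adjusted p = 0.00023). *Ccr7* was at 5.08, 5.35 and 5.82, against 6.45, 7.45 and 8.68 (-2.02 ± 0.27, 4.06-fold lower, adjusted p = 6.59e-05). *Cd80* was 5.0-fold lower (-2.32 ± 0.34, adjusted p = 0.000131), at 4.25, 4.77 and 4.93 in NSG and 5.78, 7.51 and 7.67 in BALB/c mice, and 1.99-fold lower by its second probe set. None of these 3 genes overlapped between the hosts, and neither did *Flt3*, *Cd40* and *Ccl22*, in all 6 of 10, beside 5.01% of all genes.

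*Ccl22*, at 6.07, 6.20 and 6.29 in NSG mice, was the least variable gene there, and lay at 7.20, 7.63 and 8.79 in BALB/c mice (-1.58 ± 0.22, 2.98-fold lower, adjusted p = 7.68e-05). *Cd40* was 3.53-fold lower (-1.82 ± 0.35, adjusted p = 0.00128), *Cd86* 2.74-fold (-1.46 ± 0.41, adjusted p = 0.0158), *Ccl17* 2.38-fold (-1.25 ± 0.40, adjusted p = 0.0329) and *Flt3* 1.48-fold (-0.57 ± 0.11, adjusted p = 0.00166). *Cd86* and *Ccl17* overlapped between hosts, with 2 and 4 of 6 NSG tumors below every BALB/c tumor. The call of *Ccl17* was lost without NSG replicate 2, 3, 5 or 6 and without BALB/c replicate 3 or 6, and its difference was -0.86 without BALB/c replicate 1. The other 7 calls held in all 12 fits, among them the fit without replicate 3, in which *Itgax* was at -2.26 and *Cd40* at -1.52.

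Genes related to the 10 moved in the same comparison. Of 13 conventional dendritic cell genes, 10 fell, 0 rose and 3 did not pass (median -1.01). Among them were *Clec10a*, a lectin of dendritic cells and macrophages (-2.78), *Irf8*, a transcription factor needed for the cross-presenting subset (-2.02), *Batf3*, which acts with it (-2.0), and *Naaa*, a lysosomal amidase (-1.74). Of 24 other genes of mature dendritic cells, 16 fell and 2 rose (median -1.21). *Cd274*, the PD-L1 gene, was at -3.56, *Traf1*, a signalling adaptor, at -1.76, *Il15ra*, which presents IL-15, at -1.50, and *Relb*, an NF-kB subunit of maturation, at -1.11. Of 4 measured partners, *Ctla4* (-2.68) and *Cd28* (-2.18), the T cell receptors of CD80 and CD86, fell, while *Cd40lg* (-0.21) and *Ccr4* (-0.11) did not pass. All 8 T cell markers, 6 of 8 leukocyte genes, 6 of 7 NK cell markers, 7 of 7 MHC class II genes and 5 of 12 macrophage markers fell as well. The leukocyte genes averaged 9.49 to 10.11 in NSG and 10.57 to 12.02 in BALB/c mice, and the share of the 10 genes' difference that goes with them was not tested.

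In 67NR Controls, 0 of 10 genes passed between hosts (all genes, 0.549%). Of the 10 differences 1 was positive (42.4% of all genes) and the median was -0.59, beside -0.05 over all genes, and 2 genes, *Ccl22* and *Ccr7*, were lower at an unadjusted p under 0.05 (6.65% of all genes). *Ccl22*, at 5.89, 6.11 and 6.36 in NSG and 6.69, 7.01 and 7.15 in BALB/c mice, differed by -0.83 ± 0.31 (adjusted p = 0.306), and *Ccr7*, at 5.07, 5.25 and 6.05 against 6.21, 6.36 and 6.56, by -0.92 ± 0.38 (adjusted p = 0.381). Neither overlapped, and nor did *Itgax*, *Cd80* and *Cd86*, which with 3 tumors a group holds for 20% of all genes in that direction. In this fit the groups of a line share an estimate of the spread, so Controls were judged with the spread of BPTF KD tumors too. For *Itgax* the SD was 0.26 and 0.34 in Controls of NSG and BALB/c mice, and 1.23 in BPTF KD tumors of BALB/c mice. The host difference was compared between the labels only by the interaction above, in which 0 of 10 genes passed.

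In 66cl4 BPTF KD tumors 4 of 10 genes fell in NSG mice, *Itgax*, *Cd40*, *Ccl17* and *Ccl22* (all genes called lower, 6.34%). *Ccl17* was at 5.97, 6.30 and 6.59, against 6.76, 6.92 and 7.18 in BALB/c mice (-0.67 ± 0.12, 1.59-fold lower, adjusted p = 0.00092). *Itgax* was at 5.71, 5.81 and 6.0, against 6.14, 6.46 and 6.62 (-0.57 ± 0.12, 1.48-fold lower, adjusted p = 0.00307). Neither gene overlapped (3.21% of all genes with NSG lower), and both calls held in 12 of 12 fits with 1 tumor left out. *Cd40* (-0.61 ± 0.19, adjusted p = 0.0404) and *Ccl22* (-0.31 ± 0.10, adjusted p = 0.0439) overlapped between hosts, and their calls were kept in only 4 and 2 of those 12 fits. The other 6 genes differed by -0.49 (*Cd83*) to -0.03 (*Flt3*). All 10 differences were thus negative, with a median of -0.34, beside 0.01 over all genes.

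In 66cl4 Controls 3 of 10 genes fell in NSG mice (all genes called lower, 10%). *Itgax* was at 5.43, 5.71 and 5.76, against 5.90, 6.50 and 6.54 in BALB/c mice (-0.68 ± 0.16, adjusted p = 0.0121). *Cd80* was at 4.92, 4.99 and 5.12, against 5.46, 5.75 and 5.83 (-0.67 ± 0.16, adjusted p = 0.0133), and *Ccl17* at 5.65, 5.93 and 6.03, against 6.20, 6.27 and 6.65 (-0.50 ± 0.16, adjusted p = 0.0381). None of the 3 overlapped, and neither did *Fscn1* (-0.72 ± 0.27, adjusted p = 0.07), 4 of 10 genes beside 18.5% of all genes. The call of *Itgax* was lost without BALB/c replicate 2, and that of *Ccl17* in 5 of 6 fits with 1 tumor left out. *Cd86* was the largest positive difference, at 8.93, 8.96 and 9.09 against 8.10, 8.70 and 8.71 (0.49 ± 0.29, adjusted p = 0.233).

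The related genes were counted for 66cl4 as well. In BPTF KD tumors 3 of 13 conventional dendritic cell genes fell (median 0.02), as did 9 of 24 genes of mature dendritic cells, 7 of 8 T cell markers and 1 of 12 macrophage markers, while 1 macrophage marker rose. In Controls 0 of 13 dendritic cell genes passed, and of the 24 others 4 fell and 2 rose. The 8 muscle genes all fell in both, by a median of 4.34 in BPTF KD tumors and 4.10 in Controls, and their part in the differences of the 10 genes was not tested.

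**Figure D3:**
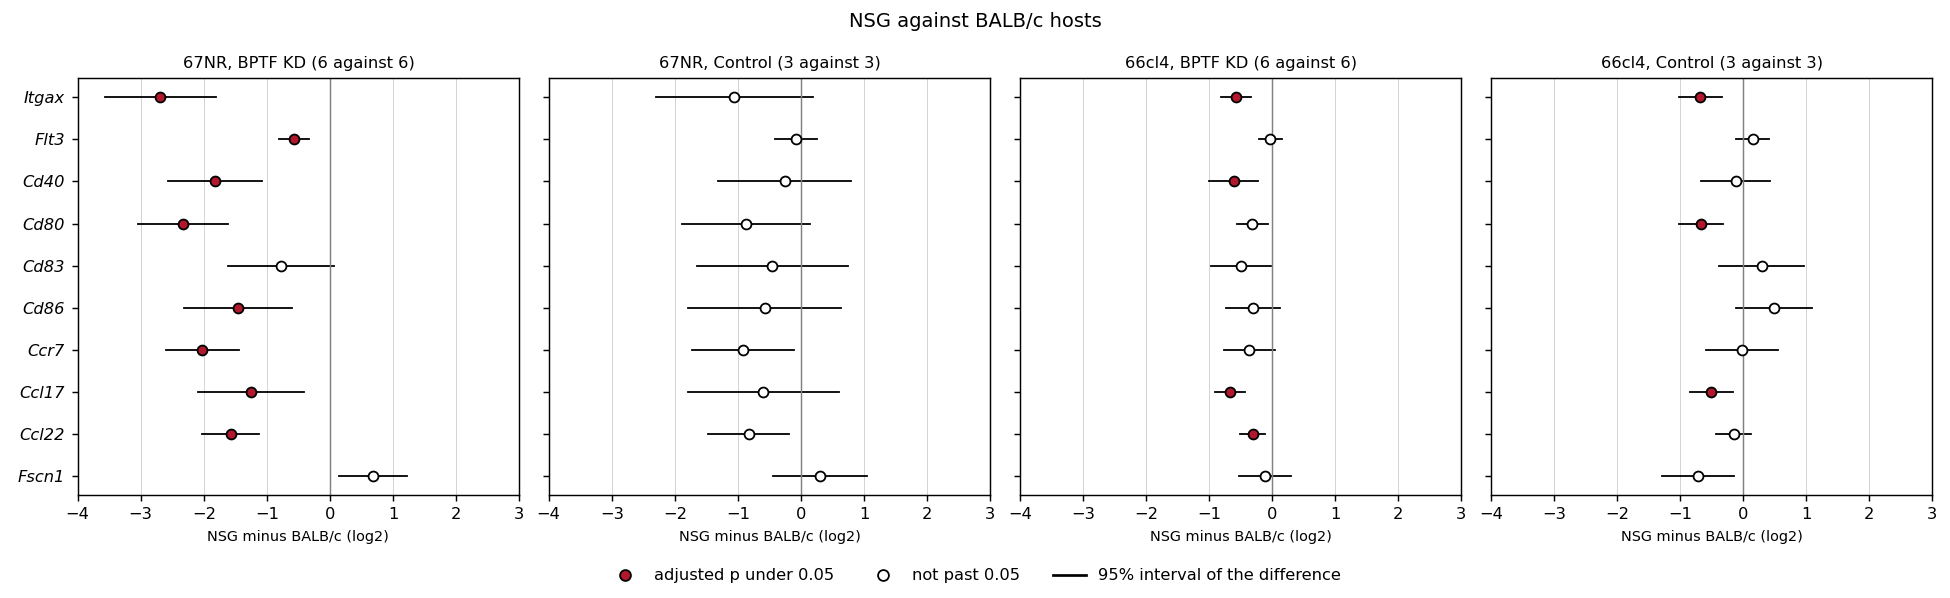
Difference between NSG and BALB/c hosts (x axis, log2) for the 10 genes (y axis) within line and label, with 95% intervals, filled where the adjusted p was under 0.05. In 67NR BPTF KD tumors 8 points are filled, all below 0, from -2.69 (*Itgax*) to -0.57 (*Flt3*), and in 67NR Controls none is. The intervals of a line use a spread shared by its groups.

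The lines were compared within host and label. In NSG mice, where T, B and NK cells are lacking, 6 of 10 genes fell in 67NR relative to 66cl4 BPTF KD tumors (*Flt3*, *Cd40*, *Cd83*, *Cd86*, *Ccr7*, *Ccl22*; all genes called lower, 23.6%) and 1 rose (*Fscn1*; all genes called higher, 21.6%). *Cd86* was at 6.79, 7.68 and 8.20 in 67NR, against 8.31, 9.16 and 9.57 in 66cl4 (-1.45 ± 0.23, 2.74-fold lower, adjusted p = 4.42e-05). *Cd40* was at 6.54, 6.71 and 6.96, against 7.31, 7.84 and 7.94 (-1.01 ± 0.12, 2.01-fold lower, adjusted p = 1.42e-06). *Fscn1* was at 11.99, 12.49 and 12.93, against 11.00, 11.30 and 11.91 (1.17 ± 0.16, 2.25-fold higher, adjusted p = 1.23e-05). *Flt3*, *Cd40*, *Cd86*, *Ccr7* and *Ccl22* did not overlap, with 67NR lower (11.3% of all genes), nor did *Fscn1*, with 67NR higher (10.7%), and all 7 calls held in each of 12 fits with 1 tumor left out.

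In the Controls of NSG mice 5 genes fell and 3 rose in 67NR (all genes, 17.5% and 16.6%). *Cd83*, at 8.52, 8.61 and 8.87 in 67NR tumors, against 10.54, 10.62 and 11.59 in 66cl4 tumors, had the largest difference (-2.25 ± 0.42, 4.76-fold lower, adjusted p = 0.000463). *Cd86* (-1.45), *Ccr7* (-0.95), *Cd40* (-0.86) and *Ccl22* (-0.35) fell too. *Cd80* rose 2.41-fold (1.27 ± 0.30, adjusted p = 0.00289), *Fscn1* 1.78-fold (adjusted p = 0.00913) and *Ccl17* 1.74-fold (adjusted p = 0.0143). The calls of *Cd40*, *Cd80*, *Cd83* and *Cd86* held in 6 of 6 fits with 1 tumor left out. Those of *Ccr7* and *Fscn1* were lost without 66cl4 replicate 1, that of *Ccl17* without replicate 3 of either line, and that of *Ccl22* without 67NR replicate 1 or 2 or 66cl4 replicate 2. *Cd80* was 1.27 higher in 67NR among Controls and 0.41 lower among BPTF KD tumors (adjusted p = 0.124), the same interaction as above.

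Leukocyte markers differed between the lines in these tumors as well. In NSG mice 7 of 8 leukocyte genes fell in 67NR in both labels, and their means were 9.49 to 10.11 in 67NR and 10.82 to 11.15 in 66cl4 BPTF KD tumors. Of 12 macrophage markers 9 fell in BPTF KD tumors and 8 in Controls. Of 13 dendritic cell genes 9 and 6 fell, *Clec10a* by 3.45 in BPTF KD tumors, and of 24 genes of mature dendritic cells 13 fell and 4 rose in BPTF KD tumors, and 10 fell and 2 rose in Controls. The 10 genes were not adjusted for these markers.

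In BPTF KD tumors of BALB/c mice 3 of 10 genes rose in 67NR and 0 fell (all genes called higher, 8.88%, and lower, 11.1%). *Itgax* was at 6.96, 8.17 and 10.57 in 67NR, against 6.14, 6.46 and 6.62 in 66cl4, and was the 1 gene without overlap, beside 2.53% of all genes (2.01 ± 0.41, 4.03-fold higher, adjusted p = 0.00224). *Cd80* was 3.03-fold higher (1.60 ± 0.29, adjusted p = 0.000824) and *Ccl22* 1.78-fold (0.83 ± 0.22, adjusted p = 0.0144). These 3 calls held in each fit with 1 tumor left out, including the one without replicate 3, where *Itgax* was at 1.58 and *Cd83*, at -1.10, was called too. In Controls only *Cd80* passed (all genes called higher, 7.47%), at 6.93, 7.09 and 7.44 in 67NR tumors, against 5.46, 5.75 and 5.83 in 66cl4 tumors (1.47 ± 0.40, 2.78-fold higher, adjusted p = 0.0207), and the call was lost without 67NR replicate 1 or 3 or 66cl4 replicate 2. *Cd83*, at 8.84, 9.13 and 9.39 against 10.56, 10.65 and 10.66, missed the threshold (-1.50 ± 0.49, adjusted p = 0.0507), although the groups did not overlap. The spread used there is shared with the BPTF KD tumors of BALB/c mice. For *Cd83* the SD was 0.925 in those of 67NR, and 0.275 and 0.055 in 67NR and 66cl4 Controls.

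Other markers differed between the lines in BALB/c mice as well. In BPTF KD tumors 5 of 8 T cell markers and 6 of 8 endothelial genes rose in 67NR, while 5 of 12 macrophage markers and 5 of 8 muscle genes fell. The T cell markers averaged 6.61 to 9.58 in 67NR tumors, against 6.26 to 7.15 in 66cl4 tumors, which overlapped. In Controls 5 of 8 muscle genes, 2 of 8 leukocyte genes and 2 of 12 macrophage markers fell in 67NR. Their means did not overlap, at 5.77 to 5.87 against 8.88 to 11.12 for muscle genes, 10.21 to 10.31 against 11.03 to 11.23 for leukocyte genes and 11.02 to 11.15 against 11.69 to 12.02 for macrophage markers. Their part in the differences of the 10 genes was not tested.

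**Figure D4:**
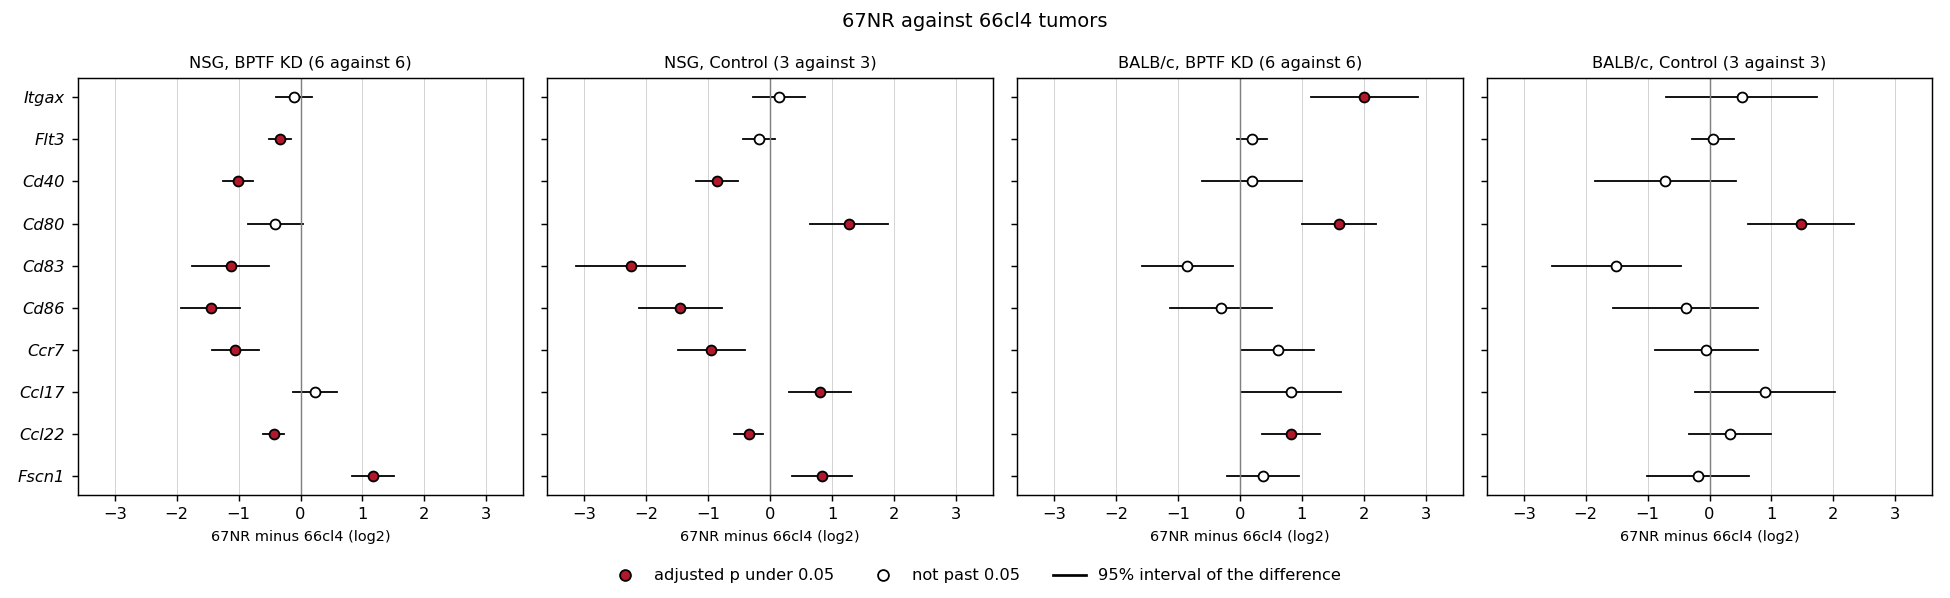
Difference between 67NR and 66cl4 tumors (x axis, log2) for the 10 genes (y axis) within host and label, with 95% intervals, filled where the adjusted p was under 0.05. *Cd80* is filled at 1.27 in NSG Controls and lies at -0.41 in NSG BPTF KD tumors, while *Cd83*, *Cd86*, *Cd40* and *Ccr7* are filled below 0 in both.

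Other probe sets were available for 4 of the 10 genes. The second set of *Cd40* gave -2.14 between hosts in 67NR BPTF KD tumors, where the brightest gave -1.82, and that of *Cd86* -1.71, where the brightest gave -1.46. For *Fscn1* the sets did not run together: between lines in BPTF KD tumors of NSG mice the brightest gave 1.17, and the others 0.55, 0.52 and 0.02. For *Cd80* in the same comparison they were -0.41, -0.39, -0.13 and -0.19.

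The 2 brighter *Cd80* sets, with means over all tumors of 5.73 and 5.68, differed in size elsewhere. Between hosts in 67NR BPTF KD tumors the second gave -0.99 ± 0.09 (adjusted p = 1.78e-06 over all probe sets), where the brightest gave -2.32. Between lines it gave 0.45 in BPTF KD tumors of BALB/c mice and 0.51 in NSG Controls, where the brightest gave 1.60 and 1.27. For BPTF KD against Control in 66cl4 of BALB/c mice the sign was the other way. There the second set was at 5.65 to 5.89 in BPTF KD tumors, against 5.48 to 5.59 in Controls (0.23 ± 0.09, adjusted p = 0.162 over all probe sets), without overlap, and the brightest gave -0.25.

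How the genes varied together was described by Pearson correlations over the 36 tumors after subtraction of each group mean. The spread differed between groups. In 67NR BPTF KD tumors of BALB/c mice the SD was 1.23 for *Itgax* and 1.08 for *Cd40*, and the next widest groups had 0.36 and 0.51. Those tumors, replicate 3 among them, therefore weigh most in the r values of such genes, and no r without them is given. In each tumor all genes come from the same array and the same mix of cells, and no test was made. The 45 pairs had a median r of 0.35, from -0.60 to 0.84, and 29 were positive. *Cd80* and *Fscn1* stood apart, with median r values of -0.32 and -0.27 to the other 9 genes. Among the other 8 genes 27 of 28 pairs were positive, with a median of 0.52. The closest were *Cd40* and *Ccl22* (0.838), *Cd83* and *Cd86* (0.835), and *Cd40* and *Cd86* (0.78). *Ccl17* and *Itgax* formed the 1 negative pair (-0.17).

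**Figure D5:**
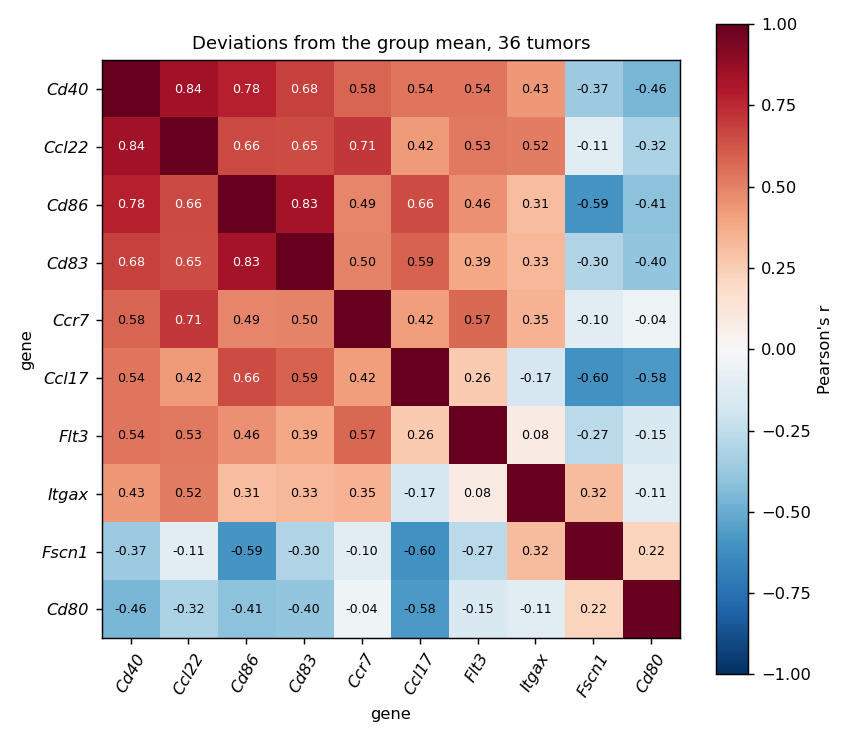
Pearson's r (colour and number) between the 10 genes (both axes) over 36 tumors, as deviations from the mean of the tumor's group. *Cd40* and *Ccl22* have the highest value, 0.84, and the rows of *Fscn1* and *Cd80* are mostly negative, down to -0.60 for *Ccl17* with *Fscn1*.

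Among all 12394 genes, those most like each gene by the same measure were *Cd22* (0.89), *Dnase1l3* (0.88) and *Syk* (0.88) for *Itgax*, and *Mefv* (0.75), *Lrrc4* (0.72) and *Tmem123* (0.70) for *Flt3*. *Cd40* was closest to *Fkbp1b* (0.92), *Lpxn* (0.92) and *Il18bp* (0.91), *Cd83* to *Meox1* (0.87), *Ly86* (0.85) and *Gimap6* (0.84), and *Cd86* to the chemokine gene *Cxcl16* (0.96), *Creg1* (0.91) and *Plgrkt* (0.91). *Ccr7* was closest to *Ccr9* (0.79), *Spib* (0.76) and *Bcl2l14* (0.73), *Ccl17* to *Fkbp7* (0.86), *Zfp944* (0.86) and *Pdgfd* (0.86), and *Ccl22* to *Gfi1* (0.85), *Birc3* (0.85) and *Cd27* (0.84). For *Cd80* they were *Plet1* (0.84), *Ankrd33b* (0.82) and *Lgr6* (0.81), and for *Fscn1* the actin-binding protein gene *Lasp1* (0.93), the matrix gene *Sparc* (0.92) and *Ppp2r1a* (0.92). The mean of all 10 genes was closest to *Tifa* (0.91), *Epsti1* (0.89) and *Il10ra* (0.88).

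By the same measure, the mean of the 13 dendritic cell markers had an r of 0.79 with *Cd40*, 0.72 with *Ccl22*, 0.67 with *Cd83* and 0.66 with *Cd86*, and of -0.29 with *Cd80* and -0.14 with *Fscn1*. The mean of the 8 T cell markers had 0.81 with *Cd40*, 0.77 with *Ccl22* and 0.73 with *Itgax*. *Itgax* was nearer to the 12 macrophage markers (0.72) than to the dendritic cell markers (0.56). *Cd86* had 0.10 with the macrophage markers and 0.66 with the dendritic cell markers. The mean of 7 NK cell markers had a higher r than the dendritic cell markers with *Cd40* (0.93) and *Cd86* (0.77), and a lower one with *Cd83* (0.64) and *Itgax* (0.30). These values thus do not set the dendritic cell markers apart from those of other cells. The r of *Fscn1* with the brightest probe set of *Bptf* was 0.69.

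*Ccl22* and *Ccl17* lie 58.0 kb apart on chromosome 8, with 1 protein-coding gene, *Cx3cl1*, between them, and their r was 0.42. *Cd86* and *Cd80*, which encode the 2 ligands of CD28, lie 1791271 bases apart on chromosome 16, with an r of -0.41. Promoters of 6 of the 10 genes were found in RefSeq (GRCm38.p6), as 250 bases before to 50 bases after an annotated start, which for *Ccl17*, *Cd80* and *Itgax* lies inside the outer bounds of the gene. The chemokine pair and *Cd80*, which ran against them, are shown with matches to a loose NF-kB motif, read on both strands, in capitals. The middle positions of this motif are open to any base, so a match need not be a full NF-kB consensus site. All 3 promoters are on the plus strand, at chr8:94745434-94745733 for *Ccl22*, chr8:94810203-94810502 for *Ccl17* and chr16:38458683-38458982 for *Cd80*.
Ccl22: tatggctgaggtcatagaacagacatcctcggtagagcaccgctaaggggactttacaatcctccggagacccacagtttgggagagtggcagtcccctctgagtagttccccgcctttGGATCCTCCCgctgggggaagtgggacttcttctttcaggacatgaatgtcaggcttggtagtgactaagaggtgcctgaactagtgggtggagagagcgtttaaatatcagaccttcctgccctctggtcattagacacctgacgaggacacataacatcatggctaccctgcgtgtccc
Ccl17: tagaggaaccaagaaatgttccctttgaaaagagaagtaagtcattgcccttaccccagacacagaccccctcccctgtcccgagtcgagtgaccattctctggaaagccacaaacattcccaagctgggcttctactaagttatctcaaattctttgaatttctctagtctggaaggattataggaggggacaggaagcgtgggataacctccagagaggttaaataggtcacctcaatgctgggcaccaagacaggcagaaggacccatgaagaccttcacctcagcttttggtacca
Cd80: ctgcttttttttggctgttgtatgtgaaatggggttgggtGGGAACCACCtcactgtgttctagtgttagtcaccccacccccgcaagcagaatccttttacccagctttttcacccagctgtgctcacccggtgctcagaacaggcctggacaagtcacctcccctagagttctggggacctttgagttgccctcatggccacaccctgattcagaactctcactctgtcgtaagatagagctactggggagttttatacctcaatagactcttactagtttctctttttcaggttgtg
The motif stood in *Ccl22*, on the minus strand, from position -131 relative to the start, and in *Cd80*, on the plus strand, from position -210, so in 2 of 6 promoters, beside 20.7% of all 32851 promoters in RefSeq. The PU.1 motif GAGGAAGT and the IRF motif were in 0 of the 6, beside 3.2% and 3.44% of all promoters. The match in *Ccl22* and *Cd80*, whose deviations from the group mean had an r of -0.32, is a description of these letters only.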

How the data were processed

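Expression was measured on Affymetrix mouse arrays with 500 ng of total RNA from each of 36 tumors, after necrotic tissue had been dissected away. The authors deposited log2 values, for which the submitters' processing notes name RMA without a version, and 0 columns were left unmapped. Of 22690 probe sets 20393 had 1 gene symbol in the platform annotation, 691 several and 1606 none, and for 20364 of those with 1 symbol it was found in RefSeq (GRCm38.p6). For the 12394 genes, the brightest probe set stood for the gene. Groups were compared with limma 3.58.1 (R 4.3.3) and Benjamini-Hochberg adjustment over all genes at 0.05: BPTF KD against Control on 9 tumors, and hosts, lines and interactions on the 18 tumors of a line or host. *Bptf* was compared by a two-sided exact permutation test. Nothing says whether tumors of a group shared a cell culture, so p-values measure the spread between these tumors. The fits were checked on simulated data with the same spread of a gene in every group, which the tumors did not have. There, 58% (interaction with line in NSG mice) to 91% (lines in NSG BPTF KD tumors) of changes of 1 log2 unit were called. For BPTF KD in BALB/c mice it was 73% in each line. Tables and the enumeration of splits were made in Python 3.11.15 with pandas 2.3.3 and numpy 2.4.6, and plots with matplotlib 3.10.9. The members and the lists of related genes were chosen with earlier results of these data known. Genes named beyond the members were the 3 most correlated with each member and, from the lists, examples past the threshold. As alternatives, all 36 tumors were fitted together and the methods' t-test was run, besides removal of the dimmest 25% of genes, quantile normalization, subtraction of array medians, array weights, a replicate block, the mean of a gene's probe sets, every probe set, and each tumor left out.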

Additional observations from a re-analysis of the deposited data

Results flagged for a closer look

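*Cd80* had a tumor far from the others in 2 groups of 6. In 66cl4 BPTF KD tumors of BALB/c mice, replicate 2 was at 5.96, with the nearest other tumor at 5.43. In 67NR BPTF KD tumors of NSG mice, replicate 3 was at 4.25, with the nearest at 4.71. Of 40 sets of values, 10 genes in each of the 4 groups of 6 tumors, 2 had such a tumor. Chance gives about 5% of sets, and the sets share tumors. The BPTF KD difference of *Cd80* in NSG mice differed between the lines, by -1.678 in 67NR relative to 66cl4 (limma interaction, adjusted p = 0.0347).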

How the results depend on the processing

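Counts below are of the 10 genes called. With array weights, which down-weight variable tumors, 4 were called for BPTF KD against Control in 67NR (all genes, 9.05%) and 6 in 66cl4 of BALB/c mice (25.2%) and 2 in 66cl4 of NSG mice (11.2%), 3 between hosts in 67NR Controls (15.7%), 3 between lines in BALB/c Controls (36%), and 6 and 1 in the interactions with host in 67NR (14.5%) and with line in BALB/c mice (17.7%). Over all genes, BPTF KD against Control in 67NR of BALB/c mice gave 1122 calls with array weights and 0 without, and in 66cl4 of BALB/c mice 3125 and 23. The fit of all 36 tumors called 4 for BPTF KD in 67NR of BALB/c mice, 0 between hosts in 66cl4 BPTF KD tumors, 0 in 66cl4 Controls, 2 between lines in BALB/c and 4 in NSG Controls, and 0 in the interaction with line in NSG mice. Over all 12394 genes it called 579 between hosts in 66cl4 BPTF KD tumors, where the fit used above called 1330. In the interaction with line in NSG mice it called 5, where the fit used above called 119. Counts of the 10 genes are to be read beside such shifts. For BPTF KD in 67NR of BALB/c mice, calls over all genes ran from 0 to 1122 over the alternatives. Between lines in BALB/c Controls they ran from 1548 to 4468. Where no count over all genes is given for a fit, its count of the 10 genes cannot be set beside such a share. The methods' t-test, after adjustment, called 0 for BPTF KD in 67NR of NSG mice, 2 and 0 between hosts in 66cl4 BPTF KD and Control tumors, and 3 and 3 between lines in BALB/c and NSG Controls. Over all genes the t-test called 10 for BPTF KD in 67NR of NSG mice, where limma called 141. It called 0 between hosts in 66cl4 Controls (limma, 2532) and 3091 between lines in NSG Controls (limma, 4226). The mean of probe sets called 0 for BPTF KD in 67NR of NSG mice. With every probe set tested, 0 were called there by the brightest set of a gene, although the second *Cd80* set passed, as given above. Between hosts in 66cl4 BPTF KD tumors quantile normalization called 2 and subtraction of array medians 2. Between lines in BALB/c Controls quantile normalization called 2, removal of the dimmest 25% of genes 2 and the replicate block 2. Over all genes the block called 1548 there, and the fit without it 1731. The replicate numbers do not pair the tumors, since no comparison had every correlation of same-numbered tumors over 0.1 (range -0.451 to 0.701), and the block moved no other count by over 1.5 times. The cause of these changes was not tested.

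Fits with 1 tumor left out gave the following counts, with those over all 12394 genes in parentheses. For BPTF KD the count was 0 to 0 (0 to 0) in 67NR and 0 to 3 (0 to 2208) in 66cl4 of BALB/c mice. In NSG mice it was 0 to 1 (5 to 620) in 67NR and 0 to 0 (0 to 4) in 66cl4. Between hosts it was 7 to 9 (2263 to 3334) in 67NR BPTF KD tumors and 0 to 0 (21 to 59) in 67NR Controls. In 66cl4 it was 2 to 5 (969 to 2036) in BPTF KD tumors and 1 to 3 (325 to 3401) in Controls. Between lines it was 3 to 4 (1976 to 3574) in BPTF KD tumors and 0 to 1 (1038 to 1412) in Controls of BALB/c mice. In NSG mice it was 7 to 7 (5019 to 5989) in BPTF KD tumors and 6 to 7 (3341 to 3867) in Controls. It was 0 to 1 (36 to 317) for the interaction with line in NSG mice and 0 to 0 for the other interactions. Of 1400 values of single genes under the other alternatives, 1297 kept their direction and side of the threshold, 37 lost and 44 gained a call, and 22 changed sign without one.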
